A study of Mus musculus with 14 samples.

Results

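The genes described here are 10 regulators of the decision to enter the cell cycle. They are the inhibitors of cyclin-dependent kinases Cdkn1a, Cdkn1b, Cdkn1c, Cdkn2a and Cdkn2b, the D-type cyclins Ccnd1 and Ccnd2, the tumour suppressor Trp53 with its inhibitor Mdm2, and the growth-promoting transcription factor Myc. They were chosen by symbol, with earlier results of these data known, and are 10 of the 45777 genes in the deposited tables. All 10 had counts in each of the 8 organoid libraries, and 8 of them had counts in each of the 6 tissue libraries.

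D-type cyclins activate the kinases CDK4 and CDK6, which phosphorylate the retinoblastoma protein and so release the transcription of genes for DNA synthesis. Proteins of the INK4 family, p16INK4a from Cdkn2a and p15INK4b from Cdkn2b, bind these kinases and prevent the pairing with cyclin D. The CIP/KIP family, p21 from Cdkn1a, p27 from Cdkn1b and p57 from Cdkn1c, binds complexes of cyclin and kinase more broadly. Cdkn2a also encodes p19ARF from another first exon, which restrains MDM2, the ubiquitin ligase that keeps p53 low. Cells placed in culture are known to accumulate INK4 and CIP/KIP inhibitors while they also receive growth factors that induce cyclin D and MYC.

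The groups were 7, with 2 libraries in each, all from wild-type C57BL/6 mice that were female and aged 6 to 8 weeks by the methods, and the tissue columns carry the mark 6w. Tissue was from the parotid (PG), sublingual (SLG) and submandibular (SMG) glands and was untreated. Organoids, which are small clusters of epithelium grown in Matrigel from dissociated gland cells, were from the same 3 glands. SMG organoids were sequenced in growth expansion medium (GEM), which contained the ROCK inhibitor Y-27632, and in differentiation accelerating medium (DAM), which lacked Y-27632 and contained the Notch inhibitor DAPT. PG and SLG organoids were sequenced in DAM only, so gland and medium could be compared separately only in part. The labels give 3 days in either medium, whereas the figure legends give 9 days in GEM followed by 3 days in DAM. The replicates were described as biological, and where they came from separate mice or cultures was not given, so a p-value here speaks only of the spread among these libraries. The columns of 1 PG and 1 SMG GEM library carry a replicate number that no label has, and these libraries are called unnumbered.

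Libraries held 56383651 to 71367044 counts. The 10 most abundant genes took 7.37 to 9.07% of the counts in organoids and 47.02 to 80.19% in tissue, where they were largely secreted proteins of acinar cells. Levels are therefore given as CPM, counts scaled to the effective library size, which TMM set over all 14 libraries and which discounts such genes. The 4 basal duct markers (Krt5, Krt14, Krt15 and Itga6) summed to 3477 to 7604 CPM in organoids and 137.8 to 284.6 CPM in tissue, and the 4 acinar markers (Bhlha15, Aqp5, Slc12a2 and Chrm3) to 486.7 to 1240 and 3329 to 4165 CPM. The 6 fibroblast markers summed to 0.754 to 1.74 CPM in organoids and 196.6 to 677.5 CPM in tissue, although the labels name epithelial cells as the source of both. SLG tissue replicate 1 held 17920 CPM of Amy1, an amylase gene, against 15.3 CPM in replicate 2, while PG tissue held 326030 and 337460 CPM. With library totals, the mean squared deviation between replicates, relative to counting error, was 318 per gene in SLG tissue. In the other groups it was 7.48 to 47.6. The part of these differences, between materials and between replicates, in the results below was not tested.

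The first question was how far the regulators differed between organoids and the gland they came from. In PG, 6 of the 8 genes that could be tested were called higher in organoids, in SLG 7, and in SMG 5 in either medium, and none was called lower. Calls rest on edgeR's quasi-likelihood test and required an adjusted p (Benjamini-Hochberg) below 0.05 together with a change of more than 1 on the log2 scale. By the same rule 24.2% of all tested genes were called higher in PG, 19.7% in SLG, 23% in SMG in DAM and 22.9% in SMG in GEM, and 46.8, 38.3, 45.4 and 45.5% were called in either direction. Cdkn1a, Ccnd2, Trp53, Ccnd1 and Cdkn1b were called higher in all 4 comparisons, and kept this call under each of the 15 alternatives tried per comparison. Reads of the whole gland come from many cell types, and in bulk samples fewer cells of a type and less RNA per cell cannot be told apart. Organoids and tissue were also deposited in separate tables, and a difference in preparation between them cannot be told apart from culture.

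The scaling moved all genes at once in these comparisons. With library totals in place of TMM the median log2 difference of all genes became 2.09 in PG, 1.14 in SLG, 2.10 in SMG in DAM and 1.98 in SMG in GEM, whereas with TMM it lay between -0.02 and 0.05. With library totals, 93.9, 89.9, 92.7 and 92.1% of the called genes were higher in organoids, against 51.8, 51.5, 50.6 and 50.4% with TMM. Fold changes below are those with TMM and are thus relative to the median gene.

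**Figure D1:**
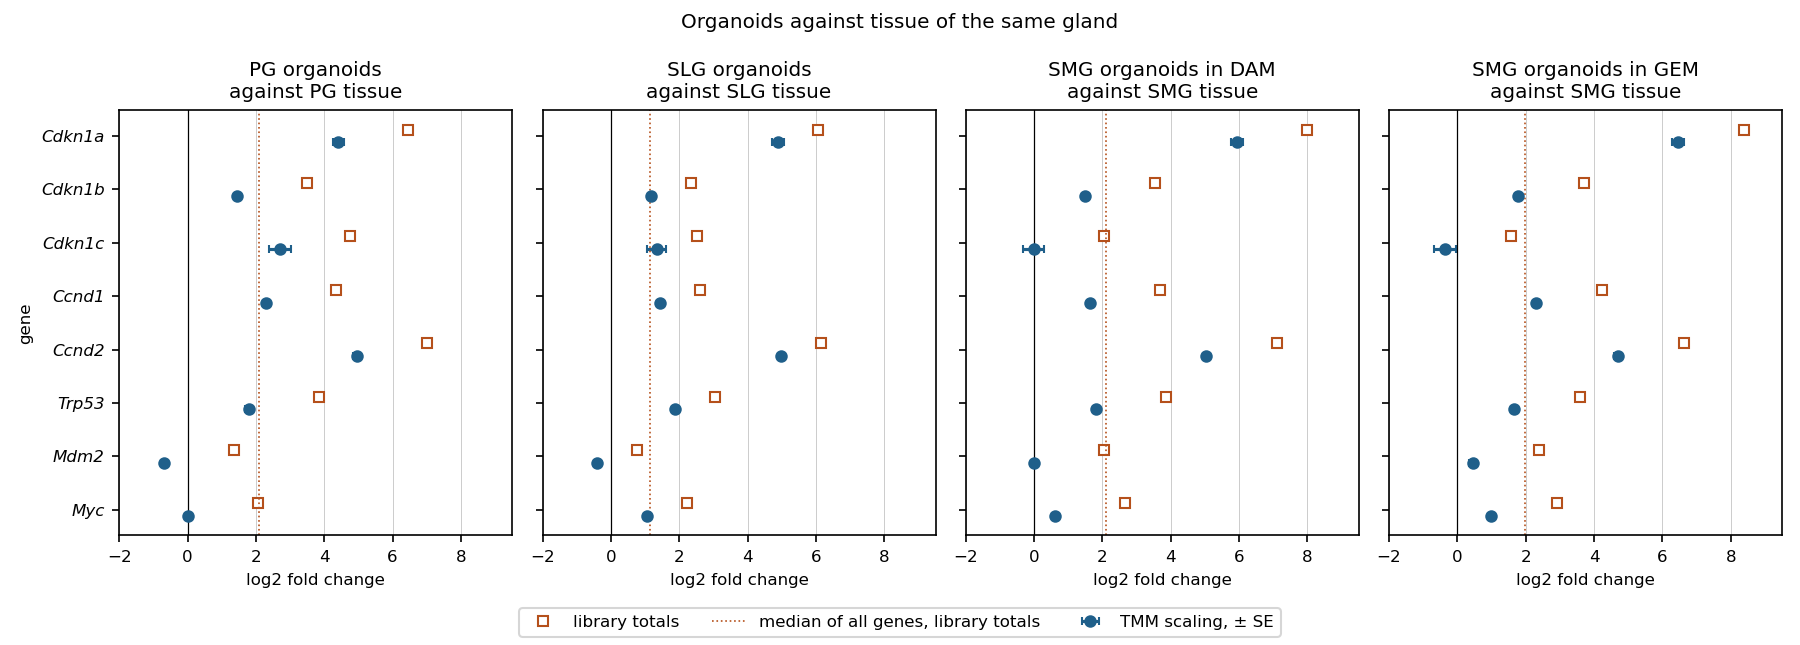
Log2 fold change of organoids against tissue of the same gland for the 8 genes with counts in all libraries, with TMM scaling (filled circles, ± SE) and with library totals (open squares). The dotted line is the median of all genes with library totals (1.14 to 2.10). Cdkn1a and Ccnd2 lie farthest to the right in each panel by either scaling, and Mdm2 lies between -0.69 and 0.44 with TMM.

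Cdkn1a, which encodes p21 and is the classic target of p53 in cell cycle arrest, was low in tissue and abundant in organoids. Its level was 3.85 and 5.60 CPM in PG tissue, 1.85 and 2.31 CPM in SLG tissue, and 2.50 and 2.94 CPM in SMG tissue. In organoids it was 106 and 93.4 CPM in PG, 63.6 and 61.4 CPM in SLG, 186 and 145 CPM in SMG in DAM, and 252 and 225 CPM in SMG in GEM. The lowest organoid library was thus far above the highest tissue library, and among organoids the order was SMG, PG and SLG with no overlap between glands. The log2 fold change against tissue was 4.41 ± 0.17 (SE) in PG (adjusted p = 1.6e-12), 4.89 ± 0.17 in SLG (8.8e-13), 5.93 ± 0.19 in SMG in DAM (1.9e-13) and 6.46 ± 0.19 in SMG in GEM (6.9e-14), each by edgeR with 2 libraries per group.

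The size of this difference was itself compared between glands, as the organoid-to-tissue difference of 1 gland minus that of another, all in DAM. For Cdkn1a it was smaller in PG than in SMG, with a log2 value of -1.53 ± 0.28 (edgeR, adjusted p = 2.7e-04), and smaller in SLG than in SMG, with -1.04 ± 0.28 (adjusted p = 7.1e-03). Of all tested genes 25% and 22.2% were called in these comparisons. The value for SLG lay close to the threshold and was called in only 12 of the 19 alternatives, which ranged from -1.97 to -0.80. Among those that lost the call were the fits without SMG organoid replicate 1 in DAM (-0.85), SLG tissue replicate 2 (-0.86) or SMG tissue replicate 1 (-0.92). The value for PG against SMG was -0.80 and not called with limma on log2(TPM + 1). Between PG and SLG the difference was -0.49 ± 0.25 and did not pass the test.

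Cdkn1a lies on chromosome 17, at chr17:29090979-29100722 of GRCm38.p6. RefSeq gives it 2 starts, and the 250 bases before each are shown because the upstream window holds the letters of p53 half-sites. Capitals mark matches, on either strand, to the GC box GGGCGG or to the p53 half-site.

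Cdkn1a upstream start, chr17:29090729-29090978, plus strand: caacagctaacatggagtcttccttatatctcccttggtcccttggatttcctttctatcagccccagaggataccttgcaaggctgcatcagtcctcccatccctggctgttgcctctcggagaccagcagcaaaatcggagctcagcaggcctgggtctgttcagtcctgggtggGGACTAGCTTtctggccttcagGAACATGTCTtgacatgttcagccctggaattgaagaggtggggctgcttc
Cdkn1a main start, chr17:29093519-29093768, plus strand: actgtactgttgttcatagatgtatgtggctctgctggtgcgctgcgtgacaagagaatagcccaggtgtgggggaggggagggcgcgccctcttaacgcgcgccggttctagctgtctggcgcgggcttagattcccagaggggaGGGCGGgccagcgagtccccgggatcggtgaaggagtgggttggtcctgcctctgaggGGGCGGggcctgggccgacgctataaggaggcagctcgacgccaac

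The upstream window held 2 matches to the p53 half-site, which was found in 7.13% of 32841 windows of this length before RefSeq starts, and no GC box. The main window held 2 GC boxes, found in 32.8% of all windows, and no p53 half-site. Neither held the E-box CACGTG (6.02% of windows) or the TATA box TATAAA (12.4%). A match is a description of the letters, and binding was not measured. Gene counts do not tell which start was used.

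Cdkn1b, which encodes p27 and is associated with quiescent and differentiated cells, differed less. It was at 32.3 and 30.6 CPM in PG tissue, 42.4 and 40.0 CPM in SLG tissue and 38.9 and 44.2 CPM in SMG tissue. In organoids it ranged from 82.0 CPM in the unnumbered PG library to 145 CPM in SMG replicate 1 in GEM. All 8 organoid libraries were above all 6 tissue libraries. The log2 fold change was 1.46 ± 0.09 in PG, 1.18 ± 0.08 in SLG, 1.48 ± 0.09 in SMG in DAM and 1.77 ± 0.09 in SMG in GEM, with adjusted p from 7.7e-12 to 1.4e-09 by edgeR. The gene spans chr6:134920401-134925525.

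Cdkn1c, which encodes p57 and is transcribed from the maternal chromosome in a cluster of imprinted genes, followed the gland. It was at 19.5 and 25.4 CPM in PG organoids and 23.9 and 20.0 CPM in SLG organoids. In SMG organoids it was at 5.99 and 6.98 CPM in DAM and 4.41 and 5.79 CPM in GEM. The PG and SLG organoid libraries overlapped each other and lay above all SMG organoid libraries. In tissue it was at 1.80 and 5.14 CPM in PG, 8.54 and 8.75 CPM in SLG, and 6.80 and 6.30 CPM in SMG.

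Against tissue, Cdkn1c was higher in PG organoids by 2.70 ± 0.32 (edgeR, adjusted p = 3.7e-06) and in SLG organoids by 1.34 ± 0.27 (adjusted p = 6.6e-04) on the log2 scale. In SMG organoids the log2 difference was -0.02 ± 0.30 in DAM and -0.36 ± 0.31 in GEM, neither of which passed the test, and with library totals it was 2.04 and 1.58. The organoid-to-tissue difference was larger in PG than in SMG by 2.72 ± 0.44 (adjusted p = 2.0e-04), which held under all 19 alternatives. It was larger in PG than in SLG by 1.36 ± 0.42 (adjusted p = 1.5e-02) and larger in SLG than in SMG by 1.36 ± 0.41 (adjusted p = 1.5e-02). The first of these was lost without SLG organoid replicate 2, without PG tissue replicate 1 (0.79) and with totals of tested genes (0.87). The other was lost in 7 of 19 alternatives, which were library totals (0.47), limma on TPM (0.30 to 0.83) and the fits without SLG organoid replicate 1, SMG organoid replicate 1 in DAM or SMG tissue replicate 1 (1.23 to 1.30).

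Markers of myoepithelial cells, the contractile cells around acini, were lower in SMG organoids than in PG and SLG organoids, as was Cdkn1c. Acta2, Myh11, Cnn1 and Mylk summed to 153 and 205 CPM in PG organoids, 58.4 to 64.3 CPM in SLG organoids, and 1.73 to 2.34 CPM in SMG organoids of either medium. Cnn1 was at 0 in all 4 SMG organoid libraries. Between PG and SLG organoids 2 of the markers could be tested. Both were called higher in PG, with a median log2 difference of 2.03, whereas Cdkn1c differed there by 0.01 ± 0.18 and was not called. In tissue the 4 markers summed to 214.4 to 984.8 CPM, higher than in any organoid library, while Cdkn1c was lower there than in PG and SLG organoids. The part of these cells in the level of Cdkn1c was not tested. PG tissue replicate 2, with 5.14 CPM of Cdkn1c against 1.80 CPM in replicate 1, also held 690.4 CPM of skeletal muscle markers against 6.53 CPM.

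**Figure D2:**
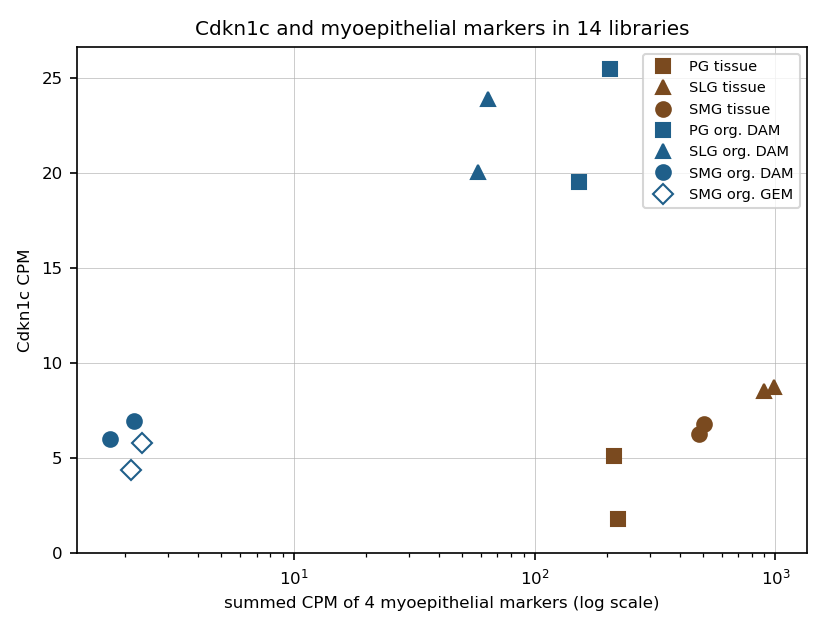
Cdkn1c level (CPM) against the summed level of the myoepithelial markers Acta2, Myh11, Cnn1 and Mylk (CPM, log axis) in each of the 14 libraries. SMG organoids sit at the lower left, PG and SLG organoids at the top, and tissue at the lower right, where the markers are highest.

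Cdkn1c lies at chr7:143458339-143461059, beside the imprinted Kcnq1 gene. Of 6 tested genes of this domain, the noncoding RNA Kcnq1ot1, which is transcribed from the paternal chromosome and silences Cdkn1c in cis, was lower in organoids than in tissue, with log2 differences of -3.11 in PG, -1.67 in SLG and -2.39 in SMG in DAM with TMM. With library totals its differences were -1.06, -0.51 and -0.34, and only that of PG was called. Kcnq1 itself was higher in SLG organoids than in SMG organoids by 1.66 (edgeR, adjusted p = 1.1e-06), whereas the log2 difference of PG from SLG was -1.51 (adjusted p = 4.1e-06). Kcnq1ot1 overlaps Kcnq1 on the other strand, and whether the counting used strand was not given in the sources used here.

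Cdkn2a and Cdkn2b, neighbours on chromosome 4, were at or near 0 in tissue and present in every organoid library. The counts of Cdkn2a in tissue were 4 in PG replicate 1 and 0 in the other 5 libraries. In organoids its counts were 1080 and 1068 in PG, 297 and 215 in SLG, 515 and 509 in SMG in DAM, and 279 and 473 in SMG in GEM. These correspond to 15.4 and 15.9 CPM in PG, 3.65 and 3.00 CPM in SLG, 7.20 and 7.15 CPM in SMG in DAM, and 4.42 and 6.74 CPM in SMG in GEM. Against a floor of 3 counts in each tissue library, Cdkn2a was at least 39.2-fold higher in SLG organoids, at least 37.8-fold in SMG organoids in DAM and at least 29.4-fold in SMG organoids in GEM. In PG the ratio to the 4 tissue counts was 157, with an exact counting interval (95%) of 61.2 to 576.1. Floors and intervals cover counting error only and leave out the spread between replicates. The libraries also had no molecular identifiers.

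Cdkn2b had 0 and 3 counts in PG tissue, 8 and 3 counts in SMG tissue, and 38 and 49 counts in SLG tissue. In organoids it was at 34.6 and 29.5 CPM in PG, 11.7 and 12.9 CPM in SLG, 42.7 and 38.3 CPM in SMG in DAM, and 28.0 and 33.4 CPM in SMG in GEM. SLG thus had the highest level of the 3 tissues, at 1.20 to 1.21 CPM, and the lowest of the organoids. The ratio of organoid to tissue was 10.2 in SLG (exact counting interval 8.21 to 12.8), 117 in SMG in DAM (65.5 to 235), 89.2 in SMG in GEM (49.8 to 179) and 428.5 in PG (146.5 to 2079). Neither gene entered the main test against tissue, which required a count above 0 in all 14 libraries. Without that filter edgeR gave Cdkn2b a log2 fold change of 3.45 ± 0.20 in SLG and 7.02 ± 0.28 in SMG in DAM.

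Among organoids in DAM both genes could be tested. Cdkn2a was higher in PG than in SLG by 2.21 ± 0.20 on the log2 scale (edgeR, adjusted p = 9.2e-06) and higher in PG than in SMG by 1.15 ± 0.19 (5.5e-04), and lower in SLG than in SMG, at -1.06 ± 0.20 (1.1e-03). The last value passed the fold threshold narrowly and was -0.97 without SLG organoid replicate 2. Cdkn2b was higher in PG than in SLG by 1.36 ± 0.12 (7.0e-06) and lower in SLG than in SMG, at -1.67 ± 0.12 (8.1e-07), while PG and SMG differed by -0.32 ± 0.11. With limma on TPM the difference of Cdkn2b between PG and SMG was 0.015, so the order of these glands depends on the scaling.

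Mtap, the housekeeping gene of methionine salvage next to Cdkn2a, was likewise lowest in SLG organoids. It was at 74.5 and 76.5 CPM in SMG organoids in DAM, 55.3 and 57.0 CPM in PG organoids, and 29.2 and 28.3 CPM in SLG organoids. It was lower in SLG than in SMG, with a log2 difference of -1.35 (edgeR, adjusted p = 9.9e-08), and higher in organoids than in tissue in all 4 comparisons, by 1.33 to 2.61. Mtap and Dmrta1 were the listed neighbours, and Dmrta1, on the far side of Cdkn2b, had at most 0.075 CPM in organoids and 0.616 to 38.9 CPM in tissue.

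Cdkn2a spans chr4:89274473-89294619 and Cdkn2b chr4:89306289-89311032 of GRCm38.p6, both on the minus strand. The starts of the 2 Cdkn2a transcripts, for p19ARF and for p16INK4a, are 12461 bases apart in GENCODE M21. The deposited counts are per gene, so p16INK4a and p19ARF cannot be told apart. The 250 bases before each start are shown to compare the 3 promoters, with GC boxes in capitals.

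Cdkn2a, start of p19ARF, chr4:89294620-89294869, minus strand: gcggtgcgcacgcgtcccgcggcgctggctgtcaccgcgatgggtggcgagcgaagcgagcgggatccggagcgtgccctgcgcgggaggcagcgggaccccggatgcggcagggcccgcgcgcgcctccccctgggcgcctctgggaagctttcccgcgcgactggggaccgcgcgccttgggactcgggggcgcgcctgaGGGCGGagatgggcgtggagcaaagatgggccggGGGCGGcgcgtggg
Cdkn2a, start of p16INK4a, chr4:89282193-89282442, minus strand: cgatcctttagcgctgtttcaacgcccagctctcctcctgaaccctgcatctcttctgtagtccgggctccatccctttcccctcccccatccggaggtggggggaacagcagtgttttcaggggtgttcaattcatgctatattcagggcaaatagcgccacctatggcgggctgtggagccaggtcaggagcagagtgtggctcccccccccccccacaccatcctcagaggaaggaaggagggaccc
Cdkn2b, chr4:89311033-89311282, minus strand: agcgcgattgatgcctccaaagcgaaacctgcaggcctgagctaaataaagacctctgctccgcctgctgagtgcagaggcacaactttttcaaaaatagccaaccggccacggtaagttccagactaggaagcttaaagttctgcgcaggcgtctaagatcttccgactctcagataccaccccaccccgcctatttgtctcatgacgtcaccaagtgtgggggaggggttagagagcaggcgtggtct

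The p19ARF window was 78.4% G and C with 40 CG dinucleotides, against 60% and 7 for p16INK4a and 53.6% and 12 for Cdkn2b. Over all windows the medians were 52.4% and 6. Only the p19ARF window held GC boxes (2), and none of the 3 held an E-box, a TATA box or a p53 half-site. Methylation and binding were not measured in these libraries.

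The 2 INK4 genes outside the chosen set, Cdkn2c and Cdkn2d, were expressed in tissue and organoids alike. Cdkn2d (p19INK4d) was at 4.62 to 9.61 CPM in tissue and 10.3 to 27.1 CPM in organoids, and was called higher in SLG and in SMG in both media, by 1.21 to 2.27 on the log2 scale. In PG its log2 difference was 0.78. Cdkn2c (p18INK4c), at 10.1 to 18.6 CPM over all libraries, was not called in any of the 4 comparisons with TMM. With library totals both genes were called higher in all 4, as were 7969 to 11009 of all 14323 tested genes.

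**Figure D3:**
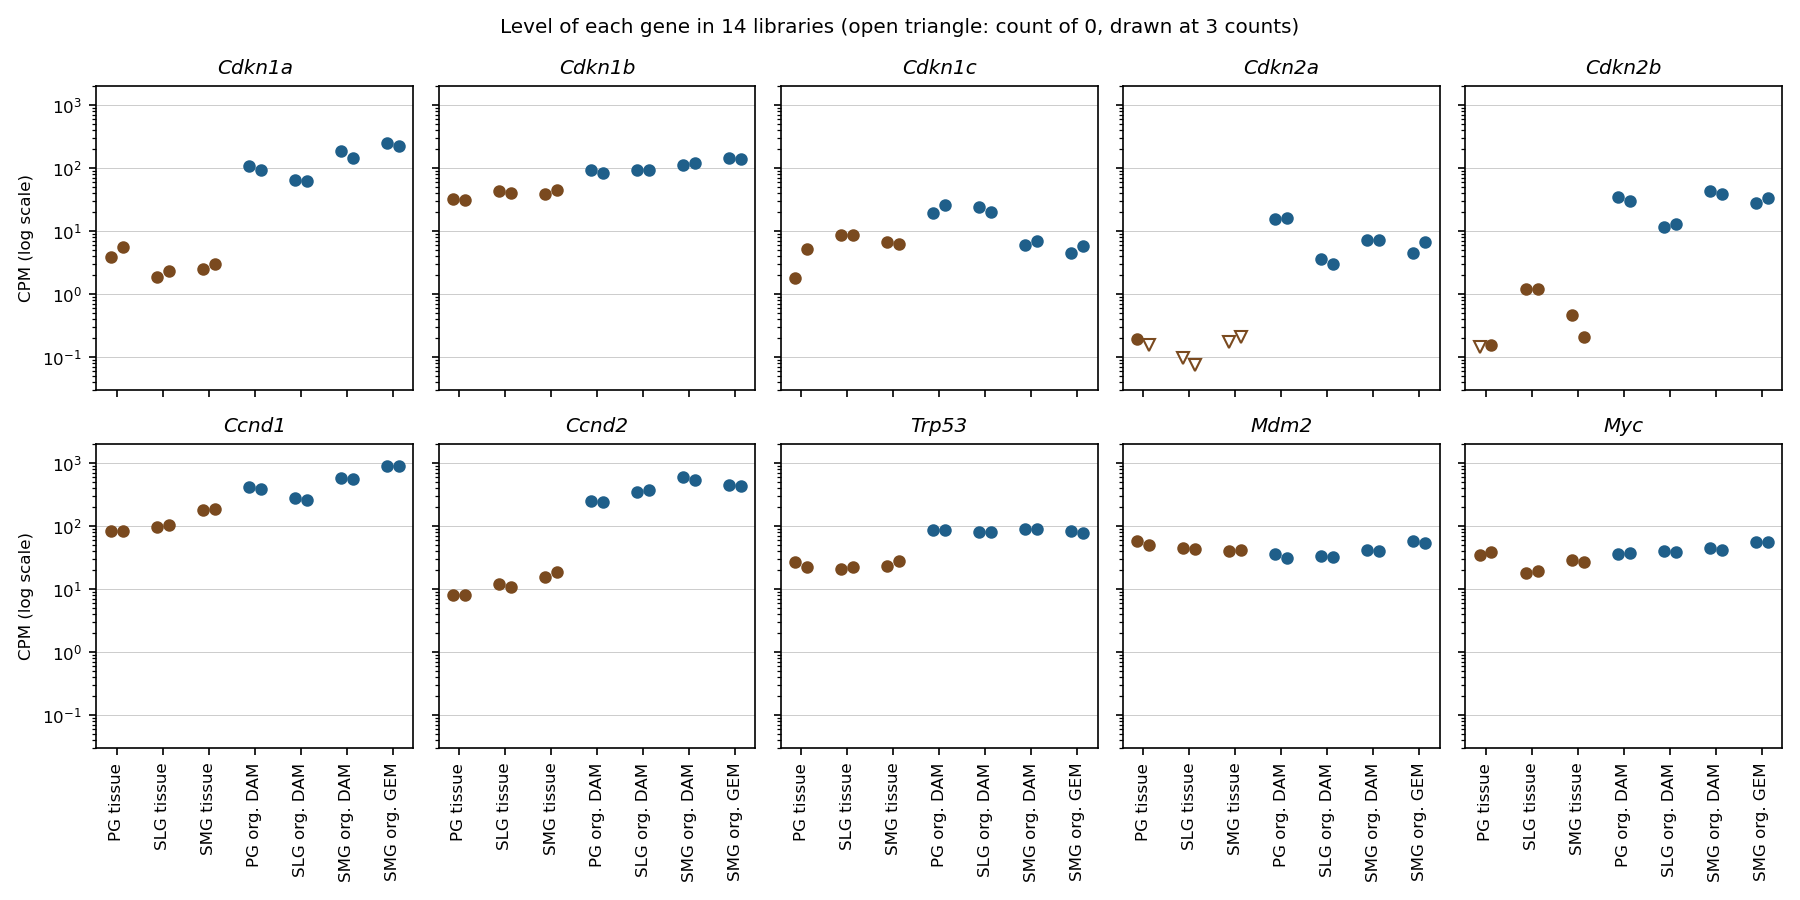
Level of each of the 10 genes in CPM (log axis) in every library, 2 per group, with tissue in brown and organoids in blue. Open triangles mark a count of 0 and are drawn at the CPM of 3 counts. Cdkn1a, Cdkn2a, Cdkn2b and Ccnd2 are separated most widely between tissue and organoids, and the points of Mdm2 overlap between them.

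Ccnd1 and Ccnd2, the cyclins that these inhibitors act on, were higher in organoids as well. Ccnd1 was at 83.1 and 84.1 CPM in PG tissue, 97.9 and 104 CPM in SLG tissue, and 181 and 187 CPM in SMG tissue. In organoids it was at 421 and 392 CPM in PG, 283 and 261 CPM in SLG, 581 and 565 CPM in SMG in DAM, and 887 and 915 CPM in SMG in GEM. With TMM, SMG thus lay above the other glands in tissue and in organoids, and the lowest organoid library exceeded the highest tissue library. In tissue the log2 difference of SLG from SMG was -0.81 and not called. Over the alternatives it ranged from -0.85 to 0.62, so the order of these tissues depends on the scaling. The log2 fold change against tissue was 2.28 ± 0.08 in PG, 1.43 ± 0.07 in SLG, 1.64 ± 0.07 in SMG in DAM and 2.29 ± 0.07 in SMG in GEM (edgeR, adjusted p from 5.3e-14 to 2.0e-11).

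Ccnd2 was at 7.96 to 18.8 CPM in tissue. In organoids it was at 255 and 241 CPM in PG, 352 and 376 CPM in SLG, 602 and 537 CPM in SMG in DAM, and 456 and 440 CPM in SMG in GEM. Its log2 fold change was 4.95 ± 0.11 in PG, 4.98 ± 0.10 in SLG, 5.04 ± 0.10 in SMG in DAM and 4.70 ± 0.10 in SMG in GEM (edgeR, adjusted p from 3.1e-16 to 8.1e-16). These values were close among glands, with differences between -0.10 and -0.03 on the log2 scale and SE of 0.13 to 0.14, none of which passed the test with TMM. With library totals or TPM the difference between glands ranged from -1.18 to 0.85. Ccnd1 spans chr7:144929931-144939831 and Ccnd2 chr6:127125162-127152188.

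The balance of the 2 cyclins does not depend on the scaling. In tissue there were 8.07 to 11.4 Ccnd1 counts per Ccnd2 count, and in organoids 0.696 to 2.08. All 6 tissue libraries were above all 8 organoid libraries. Per length, on the TPM that the authors deposited for 12 of the libraries, Ccnd1 was 13.4 to 19.02 times Ccnd2 in tissue and 1.08 to 3.06 times in organoids. The lowest ratios were those of SLG organoids and the highest of the organoids that of SMG in GEM.

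Ccnd3, the remaining D-type cyclin, went the other way with TMM, and Cdk4, the kinase partner, was higher. Ccnd3 was at 81.0 to 129 CPM in tissue and 41.0 to 47.9 CPM in organoids. It was called lower in PG (-1.56) and in SMG in DAM (-1.13) and GEM (-1.01), while with library totals its log2 differences were 0.22 to 0.93. Cdk4 was at 65.5 to 106 CPM in tissue and 228 to 298 CPM in organoids, and was called higher in all 4 comparisons by 1.32 to 1.84. Of 17 tested G1 cyclins, kinases and pocket proteins, 5 to 7 were called higher and 2 or 3 lower, with a median between 0.50 and 0.77 beside -0.02 to 0.05 for all genes. With library totals 12 to 15 of the 17 were called higher and at most 1 lower. By that scaling 7969 to 11009 of all 14323 tested genes were called higher.

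Markers of S phase and mitosis were, like Ccnd1 and Ccnd2, higher in organoids than in tissue. Of 12 (Mki67, Top2a, Pcna, Mcm2 and others), 12 were called higher in SMG organoids in either medium and 11 in PG and SLG organoids. Their sum was 117 to 162 CPM in tissue, 866 to 909 CPM in PG organoids, 493 to 494 CPM in SLG organoids, 671 to 740 CPM in SMG organoids in DAM and 899.7 to 926.5 CPM in GEM. Among organoids in DAM the order of this sum was not that of the cyclins. The sum was highest in PG, where Ccnd2 was lowest and Ccnd1 was below its level in SMG. Cdkn1a and Cdkn1b were thus called higher in the same comparisons as most of these markers, while Cdkn1c was not called in SMG, Cdkn2c in none and Cdkn2d not in PG. Which cells held the transcripts was not measured.

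**Figure D4:**
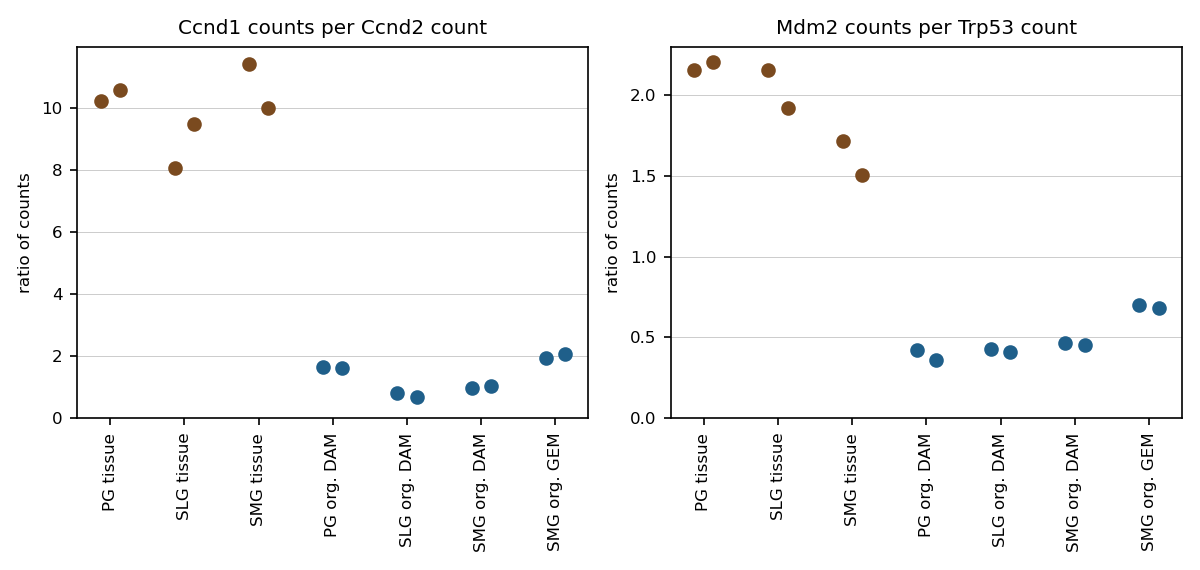
Counts of Ccnd1 per count of Ccnd2 (left) and of Mdm2 per count of Trp53 (right) in each of the 14 libraries, from 0, with tissue in brown and organoids in blue. Tissue lies at 8.07 to 11.4 and 1.51 to 2.21, and organoids at 0.696 to 2.08 and 0.363 to 0.702, with no overlap.

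Trp53, which encodes p53, was steady within tissue and within organoids with TMM. It was at 20.8 to 27.7 CPM in the 6 tissue libraries and 78.5 to 90.9 CPM in the 8 organoid libraries. Neither the 3 organoid glands nor the 3 tissues differed at an adjusted p under 0.05, with log2 differences between -0.18 and 0.15. Over the alternatives PG against SLG tissue ranged from -0.78 to 0.27 and SLG against SMG tissue from -0.28 to 1.155, so the steadiness in tissue depends on the scaling. Against tissue Trp53 was higher by 1.78 ± 0.10 in PG, 1.88 ± 0.10 in SLG, 1.81 ± 0.10 in SMG in DAM and 1.66 ± 0.10 in SMG in GEM (edgeR, adjusted p from 2.1e-11 to 1.2e-10). The gene spans chr11:69580348-69591873.

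Mdm2, both a target of p53 and the ligase that removes it, did not follow. It was at 59.1 and 50.1 CPM in PG tissue, 44.9 and 43.7 CPM in SLG tissue, and 40.8 and 41.7 CPM in SMG tissue. In organoids it was at 35.9 and 31.7 CPM in PG, 34.2 and 32.8 CPM in SLG, 42.5 and 40.2 CPM in SMG in DAM, and 58.7 and 53.5 CPM in SMG in GEM. The groups overlapped in SMG in DAM, and the difference was not called in any gland with TMM. The log2 values were -0.69 ± 0.10 in PG, -0.40 ± 0.09 in SLG, 0.00 ± 0.10 in SMG in DAM and 0.44 ± 0.10 in SMG in GEM. With library totals they became 1.35, 0.77, 2.06 and 2.38, so that its direction in PG and SLG depends on the scaling.

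Within a library, where scaling plays no part, the ratio of Mdm2 to Trp53 was lower in organoids than in tissue. There were 1.51 to 2.21 Mdm2 counts per Trp53 count in tissue and 0.363 to 0.702 in organoids, with the highest organoid values in GEM. Per length, on TPM, Mdm2 was 0.868 to 1.27 times Trp53 in tissue and 0.241 to 0.455 times in organoids. Mdm2 spans chr10:117688875-117710758, and the windows before its start and before the Trp53 start each held 1 match to the p53 half-site.

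The other targets of p53 were taken from a list of 24 genes that leaves out Cdkn1a and Mdm2. In SMG, 14 of 24 were called higher in DAM and none lower, and in GEM 17 higher and 1 lower. In PG 13 were higher and 1 lower, and in SLG 9 and 2. The median log2 difference was 1.21, 1.31, 1.05 and 0.55, beside -0.02 to 0.05 for all genes. The genes named by the smallest adjusted p were Sfn (14-3-3 sigma), by 5.01 to 6.36, Phlda3 (an inhibitor of AKT), by 3.16 to 3.81, and Plk2 (a stress-induced kinase), by 2.71 to 4.11. Sesn1, a sestrin, was lower in PG organoids, at -3.50. With library totals 19 to 24 of the 24 were called higher, as were 7969 to 11009 of all 14323 tested genes.

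Trp63, the p53 relative of basal epithelium, was higher in organoids in all 4 comparisons by 3.13 to 4.49. It was at 18.0 to 31.8 CPM in tissue and 211 to 466 CPM in organoids. It was also higher in PG than in SLG organoids by 1.03 (adjusted p = 1.7e-06). Several genes of the list, Sfn and Perp among them, are targets of p63 as well, and the basal duct markers above were high in the same libraries. The part of either in these counts was not tested.

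Myc, the transcription factor that drives growth and biosynthesis, was not called between any pair of glands, in tissue or in organoids. It was at 35.3 and 38.7 CPM in PG tissue, 18.1 and 19.7 CPM in SLG tissue, and 29.6 and 27.1 CPM in SMG tissue. In organoids it was at 36.8 and 37.7 CPM in PG, 40.5 and 38.5 CPM in SLG, 44.9 and 41.2 CPM in SMG in DAM, and 55.5 and 57.0 CPM in SMG in GEM. In PG the organoid libraries fell within the range of tissue, and in SLG and SMG they lay above it. The log2 difference was 0.01 ± 0.09 in PG, 1.06 ± 0.09 in SLG (edgeR, adjusted p = 1.5e-08), 0.60 ± 0.09 in SMG in DAM and 0.99 ± 0.09 in SMG in GEM, of which only that of SLG was called with TMM.

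The organoid-to-tissue difference of Myc was smaller in PG than in SLG, with a log2 value of -1.05 ± 0.13 (edgeR, adjusted p = 3.2e-06). In that comparison 26.4% of all genes were called. This difference of Myc was called in only 12 of the 19 alternatives. Among the others, it was -0.99 without PG tissue replicate 2 or without SLG tissue replicate 1, which lies under the fold threshold, and -0.17 with library totals. Myc spans chr15:61985341-61990361.

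Of 9 tested genes of the MYC network, the partner Max was called lower in SMG organoids in DAM (-1.12) and the repressor Mxi1 higher (1.41), while Mycl was higher in PG and SLG organoids by 1.81 and 1.49. With library totals Max had a log2 difference of 0.93 in SMG in DAM. Of 16 targets of MYC, 2 or 3 were called higher and 1 to 3 lower in each comparison, with medians between -0.24 and 0.13. Ldha was higher by 2.62 to 4.09 and Srm lower, at -3.13 to -2.74, with TMM. With library totals 10 to 15 of the 16 were called higher, as were 7969 to 11009 of all 14323 tested genes.

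The next question was the effect of the medium on SMG organoids. None of the 10 genes was called between DAM and GEM by edgeR, as 2.96% of all genes were, and DESeq2 and limma on TPM also called none. At an unadjusted p under 0.05 there were 8 of 10, and 7 of 10 passed an adjusted p under 0.05 with a change under the fold threshold, against 18.8% of all genes. Each of these 7 failed that adjusted p in some of the 15 alternatives, while its direction held in all of them. The log2 difference of DAM from GEM was -0.61 ± 0.08 for Ccnd1 (edgeR, adjusted p = 5.0e-04), -0.48 ± 0.11 for Cdkn1a (1.2e-02), -0.40 ± 0.08 for Mdm2 (6.4e-03), -0.34 ± 0.08 for Myc (1.2e-02) and -0.25 ± 0.07 for Cdkn1b (2.9e-02). In each of these 5 genes both DAM libraries were below both GEM libraries. This describes the same values that were tested, and the share of all genes so separated was not counted.

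Ccnd2 and Cdkn2b were higher in DAM, by 0.39 ± 0.08 (adjusted p = 6.3e-03) and 0.44 ± 0.11 (2.3e-02). The cyclins thus moved in opposite directions, and there were 0.965 and 1.05 Ccnd1 counts per Ccnd2 count in DAM against 1.94 and 2.08 in GEM. Cdkn2a (0.40 ± 0.19), Cdkn1c (0.39 ± 0.19) and Trp53 (0.19 ± 0.06) did not pass. Of the 24 targets of p53 only Gdf15, a stress-induced secreted factor, was called, and it was lower in DAM, at -1.24 (edgeR, adjusted p = 2.0e-03). None of the 12 markers of S phase and mitosis was called, with a median of -0.33. Of the 4 acinar markers, Slc12a2 (-1.20), Chrm3 (-1.84) and Bhlha15 (-1.67) were called lower in DAM than in GEM, and Aqp5 was at -0.35. Bhlha15 was at 0.852 and 0.941 CPM in DAM and 3.01 and 2.89 CPM in GEM. The part of this in the values of the 10 genes was not tested.

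**Figure D5:**
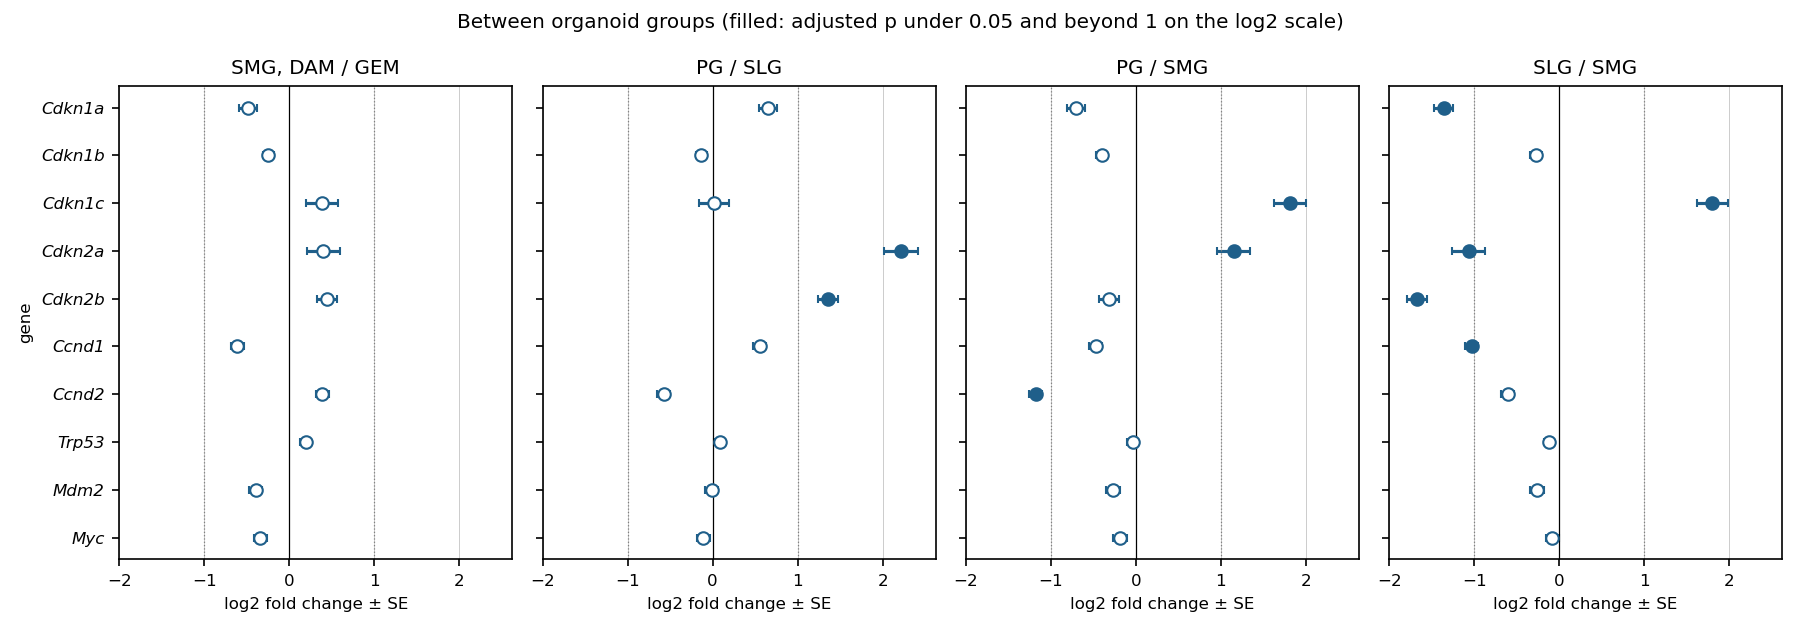
Log2 fold change ± SE of each of the 10 genes between organoid groups, for the medium in SMG organoids and for pairs of glands in DAM. Filled circles are called genes, past both the adjusted p of 0.05 and the dotted lines at 1 and -1. No circle is filled for the medium, while 2, 3 and 5 are filled for the pairs of glands.

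Between glands, organoids in DAM differed in 2 genes for PG against SLG, where 9.76% of all genes were called, in 3 for PG against SMG (14.7%) and in 5 for SLG against SMG (15.2%). Besides Cdkn2a, Cdkn2b and Cdkn1c, which are given above, Cdkn1a was lower in SLG than in SMG, at -1.36 ± 0.11 on the log2 scale (edgeR, adjusted p = 3.2e-06), as was Ccnd1, at -1.03 ± 0.08 (1.1e-06). Ccnd2 was lower in PG than in SMG, at -1.18 ± 0.08 (4.6e-07), a call that was lost with limma on TPM (-0.96 to -0.95). Cdkn1c was higher than in SMG by 1.82 ± 0.19 in PG (3.4e-05) and 1.80 ± 0.19 in SLG (3.1e-05). SLG organoids thus had the lowest Cdkn1a, Cdkn2a, Cdkn2b and Ccnd1 of the organoid groups, and Cdkn1b, Trp53, Mdm2 and Myc were not called in any pair. In SLG against SMG organoids the call of Ccnd1 held in only 10 of the 15 alternatives (weakest value -0.77). That of Cdkn2a held in only 9 of 15 (weakest value -0.73). Library totals, with -0.92 for Ccnd1, were among the settings that lost both calls.

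The basal duct markers also stood lower in SLG organoids, at 3477 to 3484 CPM against 6711 to 7604 CPM in the other organoids, and the S phase and mitosis markers were lowest there. Acinar markers summed to 486.7 to 541.5 CPM in SLG and 497.0 to 529.4 CPM in PG organoids, and to 834.0 to 1240 CPM in SMG organoids, a sum carried by Aqp5 alone. Aqp5 was at 727 to 1006 CPM in SMG organoids and 127 to 164 CPM in the others. Slc12a2, Bhlha15 and Chrm3 were called higher in PG and in SLG than in SMG organoids in DAM, by 1.88 to 5.00 on the log2 scale. The part of the mix of cells in the differences between glands was not tested.

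In tissue, 2 of the 8 tested genes were called between PG and SLG (28.3% of all genes), 2 between PG and SMG (13.5%) and none between SLG and SMG (20.3%). Cdkn1a was higher in PG than in SLG by 1.12 ± 0.31 (edgeR, adjusted p = 7.3e-03) and Cdkn1c lower, at -1.38 ± 0.35 (5.6e-03). Neither call held throughout: Cdkn1a was 0.82 without PG tissue replicate 2, 0.96 without SLG tissue replicate 1 and, with library totals, 0.25, and Cdkn1c was -0.81 without PG tissue replicate 1. Ccnd1 was lower in PG than in SMG, at -1.14 ± 0.07 (1.6e-07), as was Ccnd2, at -1.10 ± 0.16 (1.6e-04), the latter being -0.98 without SMG tissue replicate 2. The call of Ccnd1 was lost with totals of tested genes (-0.96) and with limma on TPM (-0.57 to -0.51), and that of Ccnd2 also with library totals (-0.98) and with limma on TPM without a filter (-0.17). Between SLG and SMG tissue 3 of 8 genes had an unadjusted p under 0.05, DESeq2 called none, and limma on log2(TPM + 1) called 3. With library totals the median of all genes moved to -0.85 for PG against SLG, 0.12 for PG against SMG and 0.98 for SLG against SMG, and the share of called genes that were higher moved from 55.4 to 11.2%, from 49.7 to 60.2% and from 41.3 to 94.9%.

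Per length, the order of the genes changed between tissue and organoids. On the TPM of the authors, Ccnd1 was the most abundant of the 10 in PG, SLG and SMG tissue (6.56 to 17.1 TPM). In the organoids with TPM it was at 154 to 423 TPM, followed by Ccnd2 or Cdkn1a at 120 to 238 TPM. Cdkn2a and Cdkn2b were the lowest in tissue, at 0 to 0.541 TPM, whereas in organoids Cdkn2b reached 18.8 to 56.7 TPM and exceeded Mdm2 in the PG and SMG libraries. The ratio of Cdkn1a to Cdkn1b was 0.0532 to 0.225 in tissue and 0.836 to 2.18 in organoids.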

How the data were processed

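RNA-seq of 14 libraries in 7 groups of 2 was analysed. The authors deposited raw read counts per gene and TPM in separate tables for organoids and tissue. The submitters' processing notes name HISAT2, StringTie, DESeq2 and GRCm38, without a stated role or version. The labels name a stranded total-RNA kit and the methods a stranded mRNA kit, and the sources used here do not state whether counting used strand. The tables hold 16 per-sample columns that were not used here. Groups came from the labels.

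Counts were tested with edgeR 4.0.16 (R 4.3.3) by quasi-likelihood with TMM scaling, in the 8 organoid libraries, the 6 tissue libraries or all 14, for genes counted in every library of that fit. The interaction compared the organoid-to-tissue difference between glands. Alternatives were DESeq2 1.42.0, other scalings and filters, limma 3.58.1 on log2(TPM + 1) and log2(TPM + 0.1), a replicate block and each library left out. CPM is scaled to the TMM effective library size. The fits were tested on simulated data.

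All 10 genes are named in every comparison. Of each other list, up to 4 called genes with the smallest adjusted p may be named, and other genes named were chosen after their values were seen. Likeness was ranked by Pearson r of log2 CPM. The genes and lists were chosen with earlier results of these data known. Promoter windows are from RefSeq on GRCm38.p6, which held 6 of the 10 genes.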

Additional observations from a re-analysis of the deposited data

Results flagged for a closer look

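In 6 cases the organoid-to-tissue difference of a gene was not the same in 2 glands by the edgeR interaction test (log2 scale, 2 libraries per group). In each pair of glands 2 of the 8 tested genes were called. Of all genes, 26.4% were called for PG minus SLG, 25% for PG minus SMG and 22.2% for SLG minus SMG. The count is thus near the share of all genes. For Cdkn1a the value was -1.53 for PG minus SMG and -1.04 for SLG minus SMG, ranging over the alternatives from -1.79 to -0.80 and from -1.97 to -0.80. For Cdkn1c it was 1.36 for PG minus SLG (0.79 to 2.29 over the alternatives), 2.72 for PG minus SMG (1.85 to 3.65) and 1.36 for SLG minus SMG (0.30 to 1.60). For Myc it was -1.05 for PG minus SLG (-1.54 to -0.17). In each case the sign held under the 19 alternatives, and for 5 of the 6 some alternative brought the value under the threshold, the exception being Cdkn1c for PG minus SMG. The part of cell composition in these values was not tested.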

How the results depend on the processing

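With 2 libraries per group, and with 10 genes taking 47.02 to 80.19% of the tissue counts, comparisons with tissue depend on the scaling: library totals moved the median of all genes by up to 2.10 on the log2 scale, and differences beyond 1 also turned, such as that of Ccnd3 in PG (-1.56 to 0.49). In the values below the cause of a change was not tested beyond what the setting itself alters.

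With totals of whole libraries the number of the chosen genes called was 8 in SMG organoids against tissue in either medium (5 with TMM), 3 for SLG against SMG organoids (5), 4 for PG against SLG tissue (2), 1 for PG against SMG tissue (2), 3 for SLG against SMG tissue (0) and 4 for the culture difference SLG minus SMG (2). With totals of tested genes it was 3 for SLG against SMG organoids, 4, 0 and 3 for the tissue pairs in the same order, and 1 for the culture differences PG minus SLG (2 with TMM) and SLG minus SMG. With limma on TPM it was 10 in PG, SLG and, in either medium, SMG organoids against tissue, where all 10 genes entered the fit and 8 did with TMM. With limma it was also 3 for SLG against SMG organoids, 0 for PG against SMG tissue, 3 or, with a pseudocount of 0.1, 4 for SLG against SMG tissue, 5 for the culture difference PG minus SLG, and 5 or, with 0.1, 6 for SLG minus SMG. The culture difference SLG minus SMG had 1 with DESeq2 and with RLE size factors, SMG organoids in GEM against tissue had 8 with filterByExpr or no filter, and SLG against SMG tissue had 1 with only the groups compared. Against tissue most of all genes were called too. With library totals 11006 of 14323 genes were called higher in SMG in DAM and 10603 in GEM. With limma on log2(TPM + 1), of 13012 genes, 11338 were called higher in PG, 10178 in SLG, 11418 in SMG in DAM and 11251 in GEM.

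Directions turned in these cases, as log2 fold changes. With totals of whole libraries, Mdm2 was -0.62 for PG against SLG tissue, 1.35 in PG and 0.77 in SLG organoids against tissue, Cdkn1c was 2.04 in SMG in DAM and 1.58 in GEM against tissue, Ccnd1, Ccnd2 and Myc were 0.18, 0.46 and 0.46 for SLG against SMG tissue, and Myc was -0.43 for the culture difference SLG minus SMG. With totals of tested genes, Mdm2 was -0.67 and Myc -0.011 for PG against SLG tissue, Ccnd1, Ccnd2 and Myc were 0.29, 0.57 and 0.57 for SLG against SMG tissue, and Mdm2 was 0.34 in SLG organoids against tissue. With limma on log2(TPM + 1), with or without the filter, Cdkn2b was 0.015 and Mdm2 0.033 for PG against SMG organoids, Mdm2 was -0.54 for PG against SLG tissue, Cdkn1b was 0.14 for PG against SMG tissue, Ccnd1 and Myc were 0.58 and 0.70 for SLG against SMG tissue (and Ccnd2 0.42 without the filter), Cdkn1c was 2.07 and 1.59 in SMG in DAM and GEM, Mdm2 was 2.05 in PG and 1.48 in SLG organoids, and Myc was -0.53 for SLG minus SMG. With a pseudocount of 0.1 these were 0.015, 0.034, -0.61, 0.17, 0.62 and 0.88 (and Trp53 1.16), 2.98 and 2.42, 2.23 and 1.58, and -0.71.

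Leaving out each library in turn gave 4 to 5 called genes for SLG against SMG organoids, 1 to 2 for PG against SLG tissue, 1 to 3 for PG against SMG tissue, 6 to 7 in PG and 5 to 6 in SMG organoids in GEM against tissue, 1 to 2 for PG minus SLG and 0 to 2 for SLG minus SMG. Over all genes the medium comparison called 482, between 273 (without SMG DAM replicate 2) and 1065 (without the unnumbered GEM library), 1274 with the replicate block and 152 with limma on TPM without a filter. Replicate numbers did not pair the samples (r of -0.082 to 0.048 between same-numbered deviations), and the replicate block, which left out the unnumbered libraries, called the same number of the chosen genes in every comparison (0 for the medium, 5 for SLG against SMG organoids). Counts of the other gene lists with library totals were chosen as an alternative after seeing the data.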

Other observations

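Of 12 secreted factors of senescent cells, 8 could be tested among organoids, and Il6, Il1b, Mmp3 and Mmp10 were at 0 to 0.523 CPM there. For PG against SLG organoids 5 of 8 were called higher and none lower (9.76% of all genes were called), for SLG against SMG none higher and 5 lower (15.2%), and for PG against SMG 2 higher and 1 lower (14.7%). The medians were 1.30, -1.17 and 0.54, beside -0.01 to 0.00 for all genes. Il1a, a proinflammatory cytokine, was at 86.8 and 67.5 CPM in PG organoids, 1.17 and 1.30 CPM in SLG organoids, and 40.1 to 59.6 CPM in SMG organoids. Cxcl1, a neutrophil chemokine, was at 176 and 196 CPM in PG, 48.0 and 42.5 CPM in SLG, and 145 to 155 CPM in SMG organoids.

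Mycn, the MYC relative of embryonic tissues, was at 5.15 and 4.92 CPM in SLG organoids, 0.787 and 0.880 CPM in PG organoids, 0.086 to 0.225 CPM in SMG organoids and at 0 in all 6 tissue libraries. It was higher in SLG than in SMG organoids in DAM by 4.52 on the log2 scale (edgeR, adjusted p = 2.8e-07).

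Over the 14 libraries, which fall into organoids and tissue, the gene of 10855 ranked whose log2 level was most like that of Cdkn1a was Tubb5 (Pearson r = 0.997). For Ccnd2 it was Ly6d (0.995), for Trp53 Kirrel (0.995) and for Cdkn1c Zfp27 (0.949). These values are descriptions.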
